A study of Homo sapiens with 2 samples.

Results

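The 10 genes described here encode the subunits of the 2 human condensin complexes and the nuclear type II topoisomerases. They were taken by name: SMC2 and SMC4, which both condensins contain; NCAPD2, NCAPG and NCAPH of condensin I; NCAPD3, NCAPG2 and NCAPH2 of condensin II; and TOP2A and TOP2B. All 10 had a value, over 18 of the 34880 probe sets that the platform annotation gives to exactly 1 gene, and as 10 of 17689 measured genes. RNA was measured on Affymetrix Human Genome U133 Plus 2.0 arrays in LNCaP, an androgen-sensitive human prostate carcinoma cell line. The control culture was infected with lentivirus from empty pLKO.1, and the KDM4A knockdown culture with lentivirus from the shKDM4A construct, a hairpin against the histone lysine demethylase KDM4A. Both cultures were grown in serum-containing medium and harvested 3 days after infection with virus packaged in HEK293T cells. The labels name 1 hairpin construct, and the control carried no hairpin. Each group has 1 array, so no value has a replicate check, no test was possible, and a difference below is one between these arrays.

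Condensins are ring-shaped complexes that fold chromatin into loops and give mitotic chromosomes their compact shape. In each, the ATPases SMC2 and SMC4 are closed by a kleisin (NCAPH or NCAPH2), which carries a pair of HEAT-repeat subunits (NCAPD2 and NCAPG, or NCAPD3 and NCAPG2). Condensin II is nuclear through the cell cycle, while condensin I reaches chromosomes after the nuclear envelope breaks down. Type II topoisomerases cut both strands of a DNA helix and pass another through the gap. TOP2A is made mainly in proliferating cells and untangles sister chromatids, TOP2B is made in dividing and resting cells and acts at transcribed genes, and both are targets of drugs such as etoposide and doxorubicin.

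The deposited values are on a log2 scale, and in every row those of the 2 arrays sum to 0 within 1e-06. Each value is therefore a distance from the mean of the 2 arrays: a probe set at 1.69 in the control stands at -1.69 in the knockdown. Signal levels are lost, so it cannot be said whether a probe set was bright or dim, and genes can be compared by their differences only. A difference is the knockdown value minus the control value, a gene's difference is the mean over its probe sets, and ± SD gives how far that gene's probe sets scattered on these arrays, not how far cultures scatter. Genes were called lower or higher at a fold of 2 or more, a rule of size and not a test. No source used here states the log base, which was taken as 2, as RMA (robust multi-array averaging), the method named in the submitters' processing notes, gives it. In RNA from whole cultures, fewer cells expressing a gene and less RNA per cell cannot be told apart.

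KDM4A itself was 2.26-fold lower in the knockdown (-1.18 ± 0.40, SD over 2 probe sets), with probe sets at -0.90 and -1.46, which goes with the labels. The median over all 44672 probe sets was 0.014. The 18 hybridisation spike-in probe sets had a median of -0.0072 and ran from -0.090 to 0.063. The 7 poly-A spike-in probe sets had a median of 0.0063 but ran from -0.13 to 0.40. The 3' minus 5' contrast moved by -0.12 for ACTB and -0.097 for GAPDH. Since levels are lost, the LNCaP identity of the cultures could not be checked from luminal prostate markers. Of the 9 listed, 7 had a value, and their differences ran from -0.76 to 0.48, with KLK3, which encodes prostate-specific antigen, at 0.11 ± 0.12 over 3 probe sets. All 16 listed markers of other cells with a value were under a fold of 2. So were most genes: by that rule 1.44% of all genes were lower and 1.16% higher. The count therefore does not set these markers apart. Their medians were 0.028 for the embryonic kidney line that packages the virus (5 genes) and -0.22 for basal epithelium (3 genes). For fibroblasts with smooth muscle the median was 0.052 (6 genes), and for leukocytes 0.051 (2 genes). The fibroblast and smooth muscle markers ran from -0.23 to 0.73, the highest being the collagens COL1A1 (0.73 ± 0.76 over 4 probe sets) and COL3A1 (0.63 ± 0.68 over 3). ACTA2, a smooth muscle actin outside that list, lay at 2.14 ± 2.42 over 2 probe sets, a gene chosen after its value was seen. Whether any such marker is near 0 in level cannot be read from centred values, and the part of other cells in the results was not tested.

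Of the 10 genes, 9 lay below 0 in the knockdown, against 46.3% of all genes. Of them 4 were at least 2-fold lower, against 1.44% of all genes, and none was at least 2-fold higher, against 1.16%. The 4 were TOP2A (11.5-fold), NCAPG (4.10-fold), NCAPG2 (2.56-fold) and SMC2 (2.00-fold). The median difference of the 10 genes was -0.74 and that of all genes 0.020. By probe set, 16 of 18 lay below 0, where the median over all 44672 probe sets was 0.014. At least 2-fold lower were 6 of the 18, against 2.39% of the probe sets with 1 gene. NCAPH2 alone holds 5 of the 18. From lowest to highest the order of the genes was TOP2A, NCAPG, NCAPG2, SMC2, NCAPD2, SMC4, NCAPH, TOP2B, NCAPH2 and NCAPD3. The within-gene SD of probe sets, pooled over all genes with 2 or more (0.33), gives a scale for the gaps in that order. SMC2, NCAPD2 and SMC4 followed each other at less than this SD (gaps of 0.21 and 0.11), and so did NCAPH, TOP2B and NCAPH2 (0.18 and 0.039), so the order within each trio is not settled. The other gaps exceeded it, the widest being 1.49 between TOP2A and NCAPG and 0.87 between NCAPH2 and NCAPD3. Those of 0.36 between NCAPG2 and SMC2 and 0.37 between SMC4 and NCAPH exceeded it only narrowly. The SD describes probe sets within a gene on these arrays, not a difference between genes, so a gap above it does not settle the order either.

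**Figure D1:**
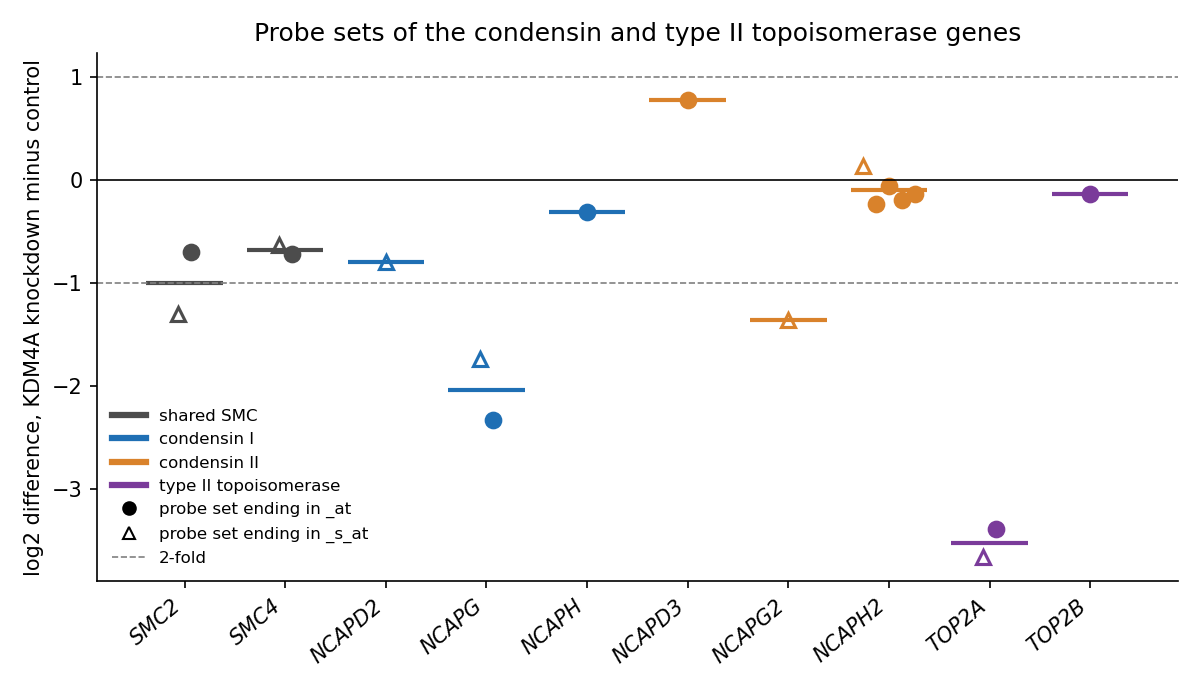
Log2 difference, KDM4A knockdown minus control, of each of the 18 probe sets (points; open triangles are probe sets ending in _s_at) and of each gene (bars, mean over probe sets), 1 array per group, with dashed lines at a fold of 2. Both TOP2A probe sets lie below -3, NCAPG2 and both NCAPG probe sets lie below -1, the 2 probe sets of SMC2 lie on either side of -1, and NCAPD3 is the 1 gene with its mean above 0.

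**Figure D2:**
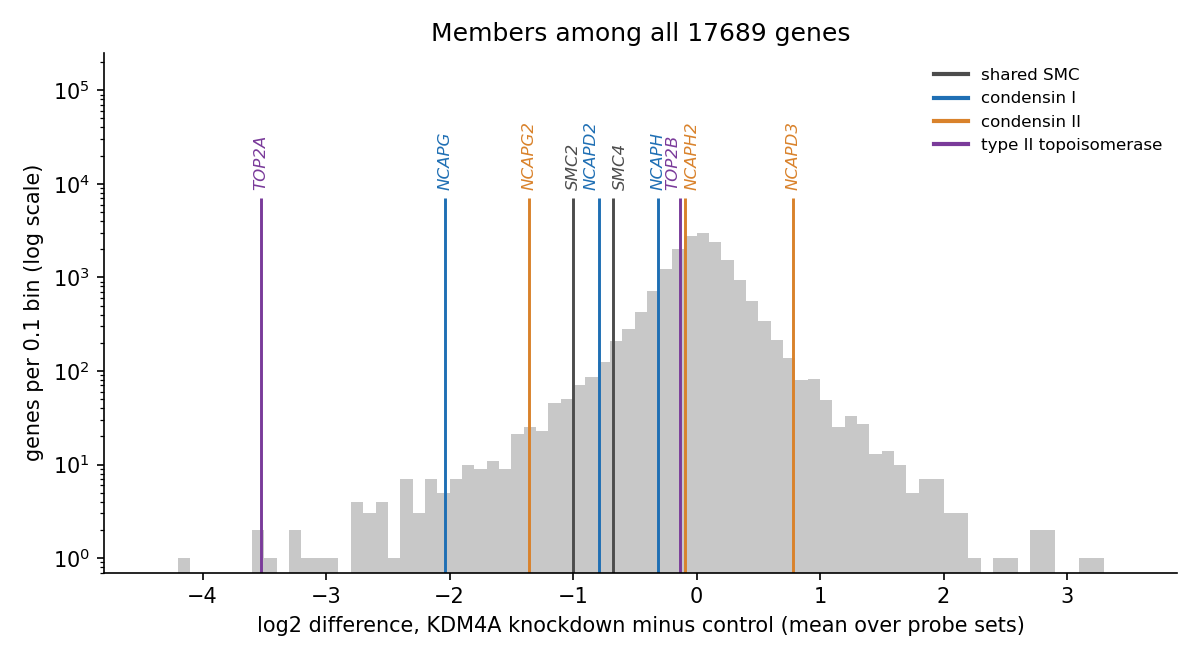
Number of genes in bins of 0.1 (grey, log scale) by log2 difference, knockdown minus control, over all 17689 genes, with a vertical line at each of the 10 condensin and topoisomerase genes, coloured by role. TOP2A, at -3.53, lies in the far lower tail, while NCAPH, TOP2B and NCAPH2 lie within the bulk of genes.

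The promoters of these genes are shown because several of the genes were lower in the same comparison, and because genes expressed around mitosis are known to share short promoter elements. These are the CCAAT box, bound by NF-Y, the cell cycle genes homology region (CHR), bound by the MuvB complexes, and E2F sites. RefSeq promoter windows of GRCh38.p14, from 250 bases before to 50 after an annotated start site, were available for 9 of the 10 genes: 5 had 1 window and 4 had 2. The exception was NCAPH2. The 250 bases before the start are printed for TOP2A, the lowest gene, and its paralog TOP2B, for NCAPG and NCAPD2 of condensin I, and for SMC4, in each case for the window at the annotated start of the gene. They are written 5′ to 3′ along the gene, and capitals mark CCAAT and TTTGAA or their reverse complements ATTGG and TTCAAA. Every printed stretch holds TTTGAA or TTCAAA. The gene-start windows of NCAPG2, NCAPH and NCAPD3, which are not printed, hold neither before the start, so the printed stretches do not stand for the whole set. TOP2A is read from chr17:40417897-40418146 on the minus strand, TOP2B from chr3:25664908-25665157 on the minus strand, NCAPG from chr4:17810729-17810978 on the plus strand, NCAPD2 from chr12:6493852-6494101 on the plus strand and SMC4 from chr3:160399400-160399649 on the plus strand.
TOP2A: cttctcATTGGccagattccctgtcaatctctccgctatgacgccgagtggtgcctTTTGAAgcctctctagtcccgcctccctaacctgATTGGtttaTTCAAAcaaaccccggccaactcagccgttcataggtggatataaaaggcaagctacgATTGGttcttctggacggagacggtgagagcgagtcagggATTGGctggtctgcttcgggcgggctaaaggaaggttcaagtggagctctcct
TOP2B: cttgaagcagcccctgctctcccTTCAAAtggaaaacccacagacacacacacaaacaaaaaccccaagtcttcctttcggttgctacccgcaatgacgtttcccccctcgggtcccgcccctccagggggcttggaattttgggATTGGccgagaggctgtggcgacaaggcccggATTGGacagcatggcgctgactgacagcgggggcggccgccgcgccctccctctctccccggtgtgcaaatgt
NCAPG: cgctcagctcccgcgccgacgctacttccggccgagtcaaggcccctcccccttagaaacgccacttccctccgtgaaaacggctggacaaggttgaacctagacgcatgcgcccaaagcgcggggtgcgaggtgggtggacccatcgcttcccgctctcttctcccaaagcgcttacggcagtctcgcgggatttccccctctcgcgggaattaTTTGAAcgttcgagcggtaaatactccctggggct
NCAPD2: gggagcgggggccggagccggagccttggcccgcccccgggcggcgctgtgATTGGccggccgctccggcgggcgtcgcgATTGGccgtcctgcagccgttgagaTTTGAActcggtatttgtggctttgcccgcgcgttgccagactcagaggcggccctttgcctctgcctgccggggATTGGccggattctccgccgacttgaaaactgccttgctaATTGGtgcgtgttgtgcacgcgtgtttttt
SMC4: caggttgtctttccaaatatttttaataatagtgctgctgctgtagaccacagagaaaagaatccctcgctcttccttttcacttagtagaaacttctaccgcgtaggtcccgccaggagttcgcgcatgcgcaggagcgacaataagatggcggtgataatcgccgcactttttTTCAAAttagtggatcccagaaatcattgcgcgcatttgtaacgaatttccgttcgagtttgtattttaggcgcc

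Both strands of the whole windows were searched for CCAAT as the box, for TTTGAA and a second form of the CHR, TTTAAA, and for 4 E2F-like runs of letters. These were TTTGGCGC and its variant TTTCGCGC, then TTTCCCGC, then GGCGGGAA. TTTGAA or TTTAAA stood in a window of all 9 genes, against 27.9% of 27305 genes in the table, and TTTGAA alone in 8 of 9, against 18.2%. By window, TTTGAA stood in 8 of the 13 windows of these genes and in 15.2% of all 35116 windows. Its first base lay 35 bases before the start in NCAPG (position -35), at -75 in SMC4, at -145 in NCAPD2 and at -194 and -151 in TOP2A. In the first window of SMC2 and the second window of NCAPD3 it ran across the start site of the window (-3). In NCAPG2 it lay after the start (36), as did TTTAAA in NCAPH (33). Neither window of SMC2, nor the second of NCAPD3, lies at the annotated start of the gene. CCAAT stood in 5 of the 9 genes, against 39.7% of genes in the table. TOP2A and NCAPD2 each had 4 copies, a number reached by 0.99% of windows, the NCAPD3 and TOP2B windows that held it had 2, and NCAPH had 1. An E2F-like match was found in 1 of the 9 genes, NCAPD3, against 6.03%, where TTTCCCGC and GGCGGGAA overlap each other at the far end of the second window. The other matches did not overlap. TOP2B and NCAPD3, whose differences of -0.13 and 0.78 were not lower by the rule of size, held TTTGAA as well, so matches were not limited to the lower genes of the set. Among the 13884 measured genes with a window, TTTGAA or TTTAAA stood in 22.9%, in 40.4% of the 203 at least 2-fold lower and in 25.2% of the 159 at least 2-fold higher. For CCAAT these shares were 41.8%, 54.2% and 49.7%, and for an E2F-like match 8.64%, 16.7% and 6.92%. A match is a run of letters, not a binding site, and binding was not measured here.

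**Figure D3:**
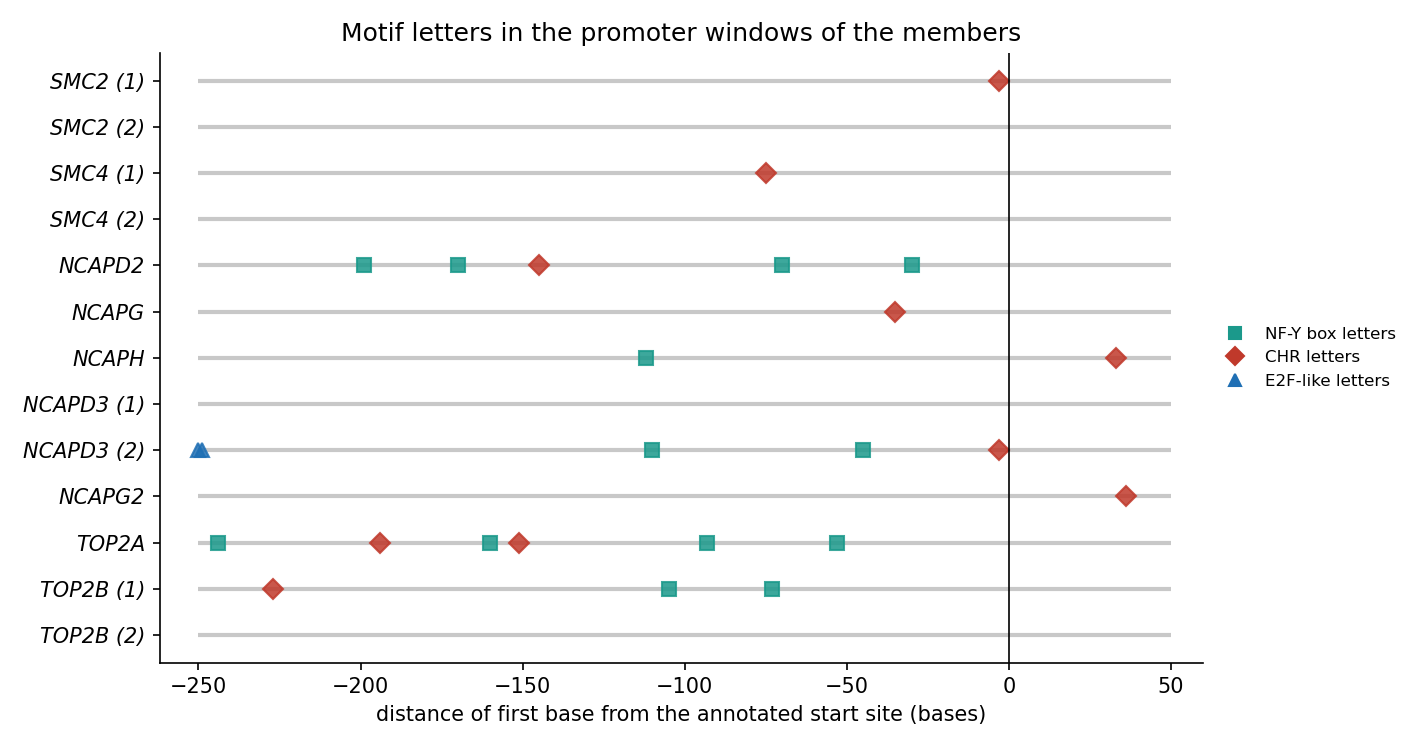
Position of motif letters in the 13 promoter windows of 9 genes (grey lines, from 250 bases before to 50 after the annotated start site at 0; 1 and 2 number the windows of a gene). Green squares are the NF-Y box letters, red diamonds the CHR letters and blue triangles the E2F-like letters; TOP2A and NCAPD2 carry 4 squares each, and each gene has a diamond in at least 1 window.

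TOP2A showed the largest difference of the 10 genes, and its paralog TOP2B lay near 0. One TOP2A probe set (201292_at) stood at 1.69 in the control and -1.69 in the knockdown, and the other (201291_s_at) at 1.83 and -1.83. Both were thus higher in the control array than in the knockdown array, by 10.5-fold and 12.7-fold. The gene mean was -3.53 ± 0.19 (SD over 2 probe sets), which made TOP2A rank 3 from the lowest among 17689 genes. The single TOP2B probe set (211987_at) stood at 0.067 in the control and -0.067 in the knockdown, a difference of -0.13, and 26.1% of genes lay as low or lower. TOP2A minus TOP2B was -3.39 log2 units, or 10.5-fold. As a scale for such distances, the 2 probe sets of 1 gene lay that far apart in 0.022% of the 4485 genes with exactly 2 probe sets, and their median distance was 0.20. That share describes probe sets within a gene on these arrays, most of them close together. It does not measure a difference between genes or the spread of cultures. No second probe set checks the TOP2B value, and the value ran from -3.25 to -3.53 over the other summaries of probe sets.

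The other listed topoisomerase and topoisomerase-like genes relax supercoils by single-strand breaks or act in meiosis and mitochondria. All 5 with a value were under a fold of 2. That holds for most genes, since 1.44% of all genes were at least 2-fold lower and 1.16% at least 2-fold higher. The median difference of the 5 was -0.025, with 3 of 5 below 0, against 46.3% of all genes. TOP3B, which acts on DNA and RNA, lay at 0.29 ± 0.34 over 2 probe sets, the mitochondrial TOP1MT at -0.18 ± 0.039 over 2, and TOP1, the main enzyme that relaxes supercoils ahead of polymerases, at -0.12 ± 0.28 over 2. TOP2A was the 1 gene of the 7 topoisomerase and topoisomerase-like genes with a value to pass a fold of 2.

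The shared ATPases SMC2 and SMC4 both lay below 0 in the knockdown, and 1 of the 2, SMC2, was lower by the rule of size. SMC2 had probe sets at 0.65 (204240_s_at) and 0.35 (213253_at) in the control and at -0.65 and -0.35 in the knockdown, which gave differences of -1.30 and -0.70. Both were higher in the control array than in the knockdown array, but they lie on either side of the 2-fold line. The mean of -1.0001 ± 0.42 (SD over 2 probe sets) passed it by the smallest margin of the 255 lower genes, at rank 255 from the lowest, and without the probe set ending in _s_at, a class that can match several transcripts, the value was -0.70 and the call was lost. Of the genes with exactly 2 probe sets, 10.3% had them as far apart as those of SMC2. SMC4 had probe sets at 0.32 and 0.36 in the control and -0.32 and -0.36 in the knockdown, close together and both under a fold of 2. Its mean was -0.68 ± 0.062 (SD over 2 probe sets), 1.60-fold lower, and 3.27% of genes lay as low or lower. SMC2 minus SMC4 was -0.32, within the pooled within-gene SD, and the mean of both genes was -0.84.

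The 3 genes particular to condensin I all lay below 0, over a wide range. NCAPG, the HEAT-repeat subunit at the safety-belt end of the kleisin that grips DNA, had probe sets at 0.87 (218662_s_at) and 1.16 (218663_at) in the control and at -0.87 and -1.16 in the knockdown. Both were higher in the control array than in the knockdown array, and the gene lay 4.10-fold lower (-2.03 ± 0.41, SD over 2 probe sets), at rank 42 from the lowest. NCAPD2, the other HEAT-repeat subunit, had 1 probe set, at 0.40 in the control and -0.40 in the knockdown. Its difference of -0.79, 1.73-fold lower, was the largest lower difference of the set that missed the 2-fold line. NCAPH, the kleisin, had 1 probe set, at 0.15 in the control and -0.15 in the knockdown, a difference of -0.31 that 11.8% of genes matched or exceeded downwards. The condensin I mean was -1.05, with an SD between its 3 genes of 0.89.

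The 3 genes particular to condensin II went both ways. NCAPG2, the counterpart of NCAPG, had 1 probe set (219588_s_at), at 0.68 in the control and -0.68 in the knockdown, and lay 2.56-fold lower (-1.36), at rank 120 from the lowest. NCAPD3, the counterpart of NCAPD2, had 1 probe set (212789_at), at -0.39 in the control and 0.39 in the knockdown. It was the 1 gene of the set that was higher in the knockdown, by 1.71-fold (0.78), short of the 2-fold line, and 2.22% of all genes lay as high or higher. NCAPH2, the kleisin, had 5 probe sets with differences of -0.23, -0.20, -0.13, -0.057 and 0.14. They straddle 0, with 1 of 5 above it, and the gene lay at -0.095 ± 0.15 (SD over 5 probe sets). The condensin II mean was -0.22, with an SD between its 3 genes of 1.07.

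Set side by side, condensin I minus condensin II was -0.82 log2 units over gene means, or 1.77-fold, which is less than the SD between the genes of either complex. By counterpart, NCAPD2 minus NCAPD3 was -1.57, a distance matched by the 2 probe sets of 1 gene in 0.60% of genes with exactly 2. NCAPG minus NCAPG2 was -0.68 (7.65% of such genes), and NCAPH minus NCAPH2 was -0.21 (48.1%). These shares describe probe sets within a gene on these arrays and are no test of a difference between genes. In all 3 pairs the condensin I gene was the lower one, but only the NCAPD2 and NCAPD3 pair differed in sign, and both of its values rest on 1 probe set. Without that pair the value was -0.45, a comparison chosen after seeing the data. It was -1.63 without probe sets ending in _s_at or _x_at, where NCAPD2 and NCAPG2 had no value left. NCAPG and NCAPG2 were the lowest gene of their complexes, and the kleisins were NCAPH, the highest of condensin I, and NCAPH2, the middle one of condensin II.

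**Figure D4:**
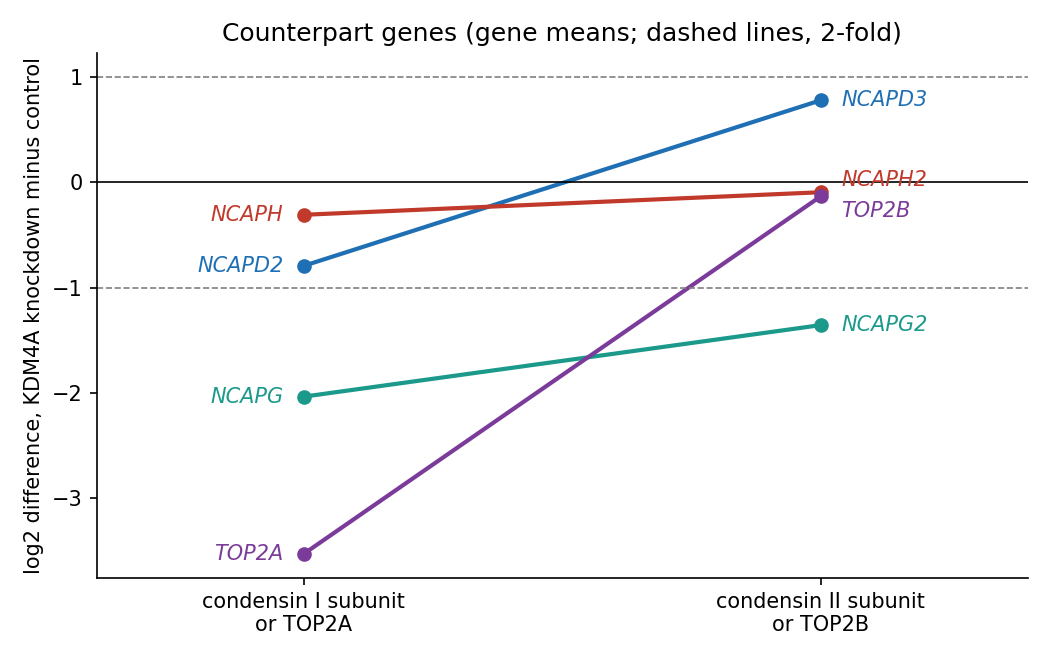
Gene means of the log2 difference, knockdown minus control, for the condensin I subunits and TOP2A (left) joined to their condensin II counterparts and TOP2B (right), 1 array per group, with dashed lines at a fold of 2. Each line rises to the right; those of NCAPD2 to NCAPD3 (-0.79 to 0.78) and TOP2A to TOP2B (-3.53 to -0.13) are the steepest.

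Genes of other chromosome complexes, topoisomerases and partner proteins were taken from 7 lists, in which 51 of 54 genes had a value. Not all of them work with condensin or type II topoisomerases. The lists were chosen with earlier results of these data known. Of the 51 genes 40 lay below 0, against 46.3% of all genes. At least 2-fold lower were 8, against 1.44% of all genes, and none was at least 2-fold higher, against 1.16%. Regulators of condensin and other parts of the chromosome scaffold had a median of -0.71, beside -0.74 for the 8 condensin genes, with 7 of 8 genes below 0 and 2 past a fold of 2. CCNB1, the cyclin that activates the mitotic kinase CDK1, lay at -1.42 ± 0.094 over 2 probe sets, and the mitotic kinase PLK1 at -1.22 over 1. KIF4A, a kinesin that binds condensin I on chromosome arms, lay at -0.98 over 1, short of a fold of 2. The MCM2 to MCM7 helicase subunits, which unwind DNA at replication forks, were all 6 below 0 with a median of -0.48. MCM5 passed a fold of 2 at -1.18 ± 1.01, through 1 of its 2 probe sets (-1.89 and -0.47), MCM6 lay at -0.94 over 1 and MCM3 at -0.55 over 1. Together 13 of the 14 genes of these 2 lists lay below 0 and 3 passed a fold of 2, with AKAP8, a condensin-recruiting anchor protein, the 1 above 0 at 0.034. The part of a smaller share of dividing cells in the differences above was not tested.

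Beside the counts that follow, 46.3% of all genes lay below 0 and 1.44% were at least 2-fold lower. Cohesin, the SMC complex that holds sister chromatids together, had all 5 core genes below 0, of which 1 passed a fold of 2, and a core median of -0.23. The SMC subunits SMC1A and SMC3 lay at -0.24 ± 0.45 over 4 probe sets and -0.23 ± 0.10 over 3, and STAG2, a HEAT-repeat subunit, at -1.19 ± 0.72 over 3. Cohesin regulators had 9 of 12 genes below 0 and 3 at least 2-fold lower, with a median of -0.27. Of those 3, PTTG1, securin, which restrains separase, lay at -2.47 over 1 probe set. SGO2, a protector of centromeric cohesin, lay at -1.54 ± 0.40 over 2, and CDCA5, sororin, which stabilises cohesin, at -1.20 over 1. The SMC5/6 complex, which acts in DNA repair, had 4 of 6 genes below 0, none past a fold of 2 and a median of -0.25. NSMCE1, its RING-domain subunit, lay at -0.84 over 1 probe set, SMC5 at -0.64 ± 0.44 over 2 and NSMCE3 at 0.40 over 1. A list of partners and repair factors of topoisomerases, not of type II alone, had a median of -0.16, with 6 of 9 genes below 0. HMGB2, a DNA-bending protein, lay at -1.11 ± 1.97 through 1 of its 2 probe sets (-2.51 and 0.28), RMI2, of the BLM dissolvasome, at -0.85 over 1, and TDP1, which removes trapped topoisomerase from DNA ends, at 0.52 ± 0.19 over 2. No difference between any of these lists and the condensin and topoisomerase genes was tested.

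**Figure D5:**
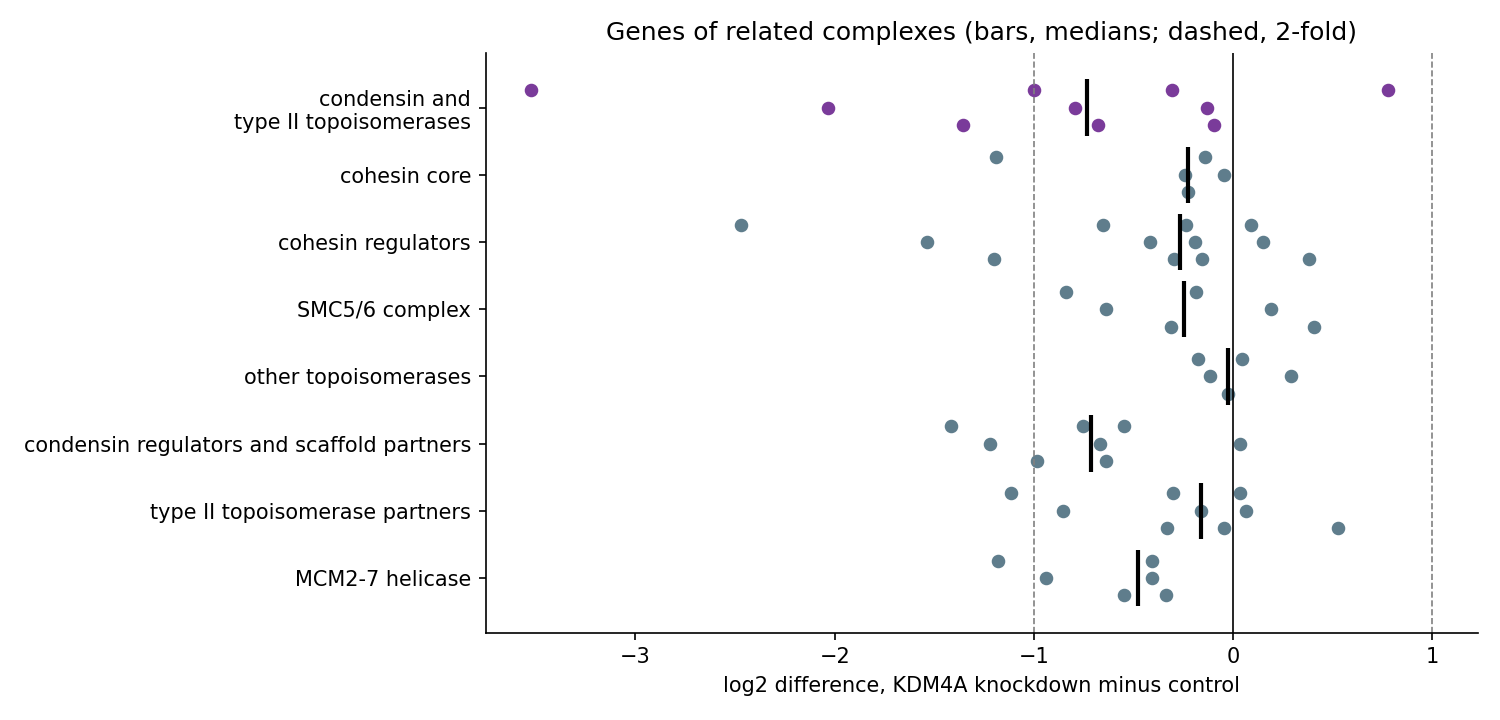
Log2 difference, knockdown minus control, of each gene (points, mean over probe sets; vertical offsets only separate points) in the condensin and type II topoisomerase set and in the 7 related lists, with black bars at list medians and dashed lines at a fold of 2. The medians run from -0.74 for the condensin and topoisomerase genes and -0.71 for their regulators to -0.025 for other topoisomerases.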

How the data were processed

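RNA from 2 LNCaP cultures, 1 control and 1 KDM4A knockdown, was hybridised to 1 array each. The authors deposited log2-scale values of 44672 probe sets; the submitters' processing notes name RMA, and no source used here gives version, log base, centring or any probe set filter. Rows summing to 0 were read as centring on the mean of the 2 arrays. Genes were named through the platform annotation for 34880 probe sets with 1 gene; 34839 matched RefSeq (GRCh38.p14) by Entrez identifier with no change of symbol. Another 1619 naming several genes, 8131 unnamed and 42 control probe sets entered no gene value. Gene means, counts and motif searches used Python 3.11.15 with numpy 2.4.6 and pandas 2.3.3, checked on simulated data. No low-value filter was possible. Alternatives were the class of probe set, the summary over probe sets, centring and the size rule. Named were all 10 genes, KDM4A, SMC1A, SMC3 and up to 3 genes of each list with the largest differences. Outside this rule, KLK3, AKAP8, COL1A1, COL3A1, ACTA2 and PDS5B were named after their values were seen. The members and lists were chosen with earlier results of these data known. Protein sequences were not used here.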

Additional observations from a re-analysis of the deposited data

How the results depend on the processing

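No alternative changed the sign of any of the 10 genes, and all 48 recomputed gene values moved by less than the pooled within-gene SD. Many of these values could not move, so the count of 48 is a weak check. The 5 genes with 1 probe set have the same value under every summary over probe sets. With 2 probe sets the median equals the mean, and subtracting the median difference moved all genes alike. The count of 4 genes at least 2-fold lower was 2 of the 8 genes left without probe sets ending in _s_at or _x_at (TOP2A and NCAPG; background 1.52%) and 2 at a fold of 3 (background 0.458%). It was 3 with the probe set closest to 0 or with every probe set required past the line (background 0.938%), and 6 at a fold of 1.5 (background 4.38%). The condensin I minus condensin II value of -0.82 was -1.63 without those probe sets, where NCAPD2 and NCAPG2 dropped out, and -0.45 without NCAPD2 and NCAPD3 (chosen after seeing the data). It was between -0.70 and -0.87 under the others. The mean of SMC2 and SMC4 stayed between -0.67 and -1.01. No paired analysis was possible because each group has 1 array; for the same reason no sample could be left out. Centring hides signal over background, so a dim probe set with a compressed difference cannot be told from a gene that differed little.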

Other observations

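In some genes of the related lists the probe sets disagreed by more than in any of the condensin and topoisomerase genes, and those named here were chosen after their values were seen. STAG2 read -1.48, -1.72 and -0.37 over its 3 probe sets. PDS5B, a cohesin release and maintenance factor with a mean of -0.42 ± 1.02 over 4, read -1.92 on 1 probe set and 0.035, 0.30 and -0.086 on the others. SMC1A read -0.90 on 1 probe set and 0.11, -0.12 and -0.059 on the others. Among the 10 genes, the widest distance between 2 probe sets was 0.60, in SMC2, and 4 of the 5 with several probe sets showed no change of sign among them.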
